A study of Mus musculus with 2 samples.

Results

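The histone genes of cultured mouse spermatogonia comprised 78 of the 26893 named genes in the deposited tables. They were chosen by symbol: 69 replication-dependent genes, whose symbols start with Hist1h, Hist2h, Hist3h or Hist4h, and 9 variant genes, H2afx, H2afz, H2afv, H2afy, H2afj, H3f3a, H3f3b, H1f0 and H1fx. The 69 genes carry 68 symbols, since Hist2h2bb has 2 gene identifiers. GENCODE M21 types 67 of the 69 as protein-coding, Hist1h2al as a processed pseudogene and 1 of the Hist2h2bb identifiers as a long noncoding RNA, and both were kept because the choice was by symbol.

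The cells were undifferentiated spermatogonia, the germ cells that hold the stem cells of the male germline, from a primary culture started from THY1-selected cells of adult C57BL/6 testes. They were kept in serum-free medium with GDNF and bFGF on mitomycin-treated SNL76/7 embryonic fibroblasts, a feeder line that mitomycin stops from dividing. The Chd4 siRNA group received 75 pmol of siRNA against Chd4, the chromatin remodeller of the NuRD complex, and the control siRNA group a non-targeting siRNA. Both were given with 2 µL Lipofectamine on plastic and taken 24 h later. In each group 3 biological replicates were pooled before capture with 10x Genomics v2 chemistry, so each group is 1 library and has no replicate check. No p-value was computed, and every interval covers counting error only. Levels are unique molecular identifiers (UMIs) over all UMIs of named genes in the same cells, scaled to 1e+06 (CPM), and a log2 ratio has the Chd4 siRNA library over the control library unless another comparison is named.

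Cells were split by marker transcripts: germ cells had more UMIs of Dazl and Ddx4 than of Col1a1 and Fn1, and feeder cells had the reverse. This gave 760 germ and 89 feeder cells in the Chd4 siRNA library, and 728 germ and 79 feeder cells in the control library, with 9 cells in each left unassigned. Median depth was 15582 UMIs with Chd4 siRNA and 15282 UMIs with control siRNA in germ cells, against 40805 UMIs with Chd4 siRNA and 38655 UMIs with control siRNA in feeder cells. A list of 13 measured germ cell markers summed to 2081 CPM in germ cells against 65.7 CPM in feeder cells of the Chd4 siRNA library, and to 1952 against 84.4 CPM in the control library. A list of 13 measured fibroblast markers summed to 816 CPM in germ cells against 17500 CPM in feeder cells of the Chd4 siRNA library, and to 741 against 16021 CPM in the control library. A list of 7 Sertoli cell markers summed to 24.3 CPM with Chd4 siRNA and 23.1 CPM with control siRNA in germ cells, and lists for Leydig cells, macrophages, endothelial and erythroid cells to at most 15.4 CPM. A list of 6 spermatocyte and spermatid markers summed to 227 CPM with Chd4 siRNA and 225 CPM with control siRNA in germ cells. Of this, Sycp3, of the synaptonemal complex, gave 218 CPM with Chd4 siRNA and 216 CPM with control siRNA, while Prm1, Prm2 and Acrv1 were at 0. The libraries shared 1 cell barcode. Chd4 itself was at 253 CPM in germ cells given Chd4 siRNA and at 536 CPM in germ cells given control siRNA, a log2 ratio of -1.08 (95% counting interval -1.15 to -1.02). In feeder cells it was at 52.9 CPM with Chd4 siRNA and 155 CPM with control siRNA, a log2 ratio of -1.55 (-1.80 to -1.30).

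Replication-dependent histone genes supply the core histones H2A, H2B, H3 and H4 and the linker histone H1 to newly made DNA. Their mRNAs are made in S phase, lack introns, and end in a stem-loop bound by the protein SLBP in place of a poly(A) tail. Variant histones are made through the cell cycle from genes whose mRNAs carry poly(A) tails: H3f3a and H3f3b encode H3.3, H2afz and H2afv encode forms of H2A.Z, H2afy encodes macroH2A, and H2afx encodes the form phosphorylated at DNA breaks. The v2 chemistry primes on poly(A), so molecules of the replication-dependent genes are counted only where poly(A) or an A-rich stretch was primed. Their UMIs therefore measure captured molecules, not the whole pool of histone mRNA.

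The stem-loop is the sequence that sets most of the replication-dependent transcripts apart. A 16-base match to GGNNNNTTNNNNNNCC whose first 6 bases pair with its last 6 was searched on the transcript strand of GENCODE M21 models (GRCm38, the assembly also called mm10), to which 76 members matched by identifier and 2 by symbol. It was found in 44 of 69 replication-dependent genes (63.8%), in 1 of 9 variant genes, and in 106 of 21875 other protein-coding genes (0.485%). The same 16 letters were carried by 26 of the replication-dependent genes, from all families except H4. Hist1h2ap and Hist1h2ae below carry this common form, and the others are examples of the less common forms, with the stem in capitals and the loop in lower case. Other genes described later, such as Hist1h2bj, Hist1h1c and Hist3h2ba, have a match too:
Hist1h2ap: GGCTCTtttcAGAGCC
Hist1h2ae: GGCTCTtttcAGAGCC
Hist1h4i: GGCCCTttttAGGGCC
Hist1h4d: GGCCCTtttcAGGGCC
Hist1h4b: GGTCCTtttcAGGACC
Hist1h3c: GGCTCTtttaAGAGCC
H2afx: GGCCCTtttaAGGGCC
The last is the variant gene with a match. Its mRNA is known to be made in both forms, with the stem-loop end and with a poly(A) tail.

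Transcript models differed in how far they run beyond the stem-loop. In 22 replication-dependent genes the model ended within 100 bases of it, for example 3 bases after it in Hist1h2ap and 23 bases after it in Hist1h2bj. In another 22 it ran on further, as in Hist1h4i, with 330 bases after the match, and Hist1h1c, with 840. No match was found for the remaining 25 genes, whose models had a median length of 411 bases, for example 381 in Hist1h2bl and 312 in Hist1h4k. A stem-loop beyond the end of a model could not be found by this search. The class with no match therefore describes the models, and its genes may have a stem-loop. The poly(A) signal AATAAA stood in the last 50 bases of 15 of 69 replication-dependent genes (21.7%), 8 of 9 variant genes (88.9%) and 69.6% of the other protein-coding genes.

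Promoter windows from RefSeq (GRCm38.p6, 250 bases before to 50 after the start) were matched for 70 members. Both strands were searched for the TATA box, read as TATAAA, the CCAAT box, and the octamer ATTTGCAT. The TATA box stood in 56.5% of 62 replication-dependent windows against 15.7% of all 27025 gene windows, the CCAAT box in 85.5% against 41.1%, and the octamer in 22.6% against 1.97%. The CCAAT box was present in all 18 H2A, 16 H2B, 10 H3 and 6 H1 windows and in 3 of 12 H4 windows, and among the families the octamer was present in H2A (7 of 18) and H2B (7 of 16) windows and in 0 of the others. Windows of neighbouring H2A and H2B genes can overlap, as for Hist1h2ae and Hist1h2bg, so the same octamer can count in both families. The windows of the 3 genes past the fold in germ cells are shown, in gene direction with matches in capitals. Hist1h2ap (chr13:21833426-21833725, minus strand) has the CCAAT box on either strand, Hist1h2ae (chr13:23571171-23571470, minus strand) has all 3 motifs, and Hist3h2ba (chr11:58948661-58948960, plus strand) has the TATA box and the CCAAT box:
Hist1h2ap: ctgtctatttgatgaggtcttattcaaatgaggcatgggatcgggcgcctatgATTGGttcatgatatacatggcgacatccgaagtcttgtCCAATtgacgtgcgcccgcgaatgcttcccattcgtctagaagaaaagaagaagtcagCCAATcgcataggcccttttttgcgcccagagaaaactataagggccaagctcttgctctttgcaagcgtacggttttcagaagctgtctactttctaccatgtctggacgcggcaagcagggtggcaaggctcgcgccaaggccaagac
Hist1h2ae: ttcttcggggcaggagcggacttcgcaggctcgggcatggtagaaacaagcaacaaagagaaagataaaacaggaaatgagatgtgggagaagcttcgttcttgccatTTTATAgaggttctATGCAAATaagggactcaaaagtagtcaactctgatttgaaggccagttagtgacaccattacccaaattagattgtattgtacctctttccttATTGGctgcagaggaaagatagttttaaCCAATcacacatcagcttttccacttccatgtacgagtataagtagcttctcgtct
Hist3h2ba: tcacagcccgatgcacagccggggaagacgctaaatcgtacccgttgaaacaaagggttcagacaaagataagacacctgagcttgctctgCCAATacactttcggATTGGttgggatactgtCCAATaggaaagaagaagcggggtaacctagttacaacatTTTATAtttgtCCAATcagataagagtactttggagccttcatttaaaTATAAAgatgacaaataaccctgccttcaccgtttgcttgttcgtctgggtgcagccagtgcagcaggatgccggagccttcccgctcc
The TATAAA and ATTTGCAT matches in the Hist1h2ae window lie on the opposite strand, that of its neighbour Hist1h2bg. A match describes these letters and was not taken as a bound site.

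Variant genes gave most of the histone UMIs in both cell classes. In germ cells the 9 variant genes summed to 5955 CPM with Chd4 siRNA and 5581 CPM with control siRNA, and the 69 replication-dependent genes to 290 CPM with Chd4 siRNA and 362 CPM with control siRNA. In feeder cells the variant genes summed to 4956 CPM with Chd4 siRNA and 4650 CPM with control siRNA, and the replication-dependent genes to 412 CPM with Chd4 siRNA and 510 CPM with control siRNA. Of the 69 replication-dependent genes, 13 had at least 200 UMIs over both libraries in germ cells, 32 had 20 or more but under 200, 23 had 1 to 19, and Hist1h2bq had 0. In feeder cells 4 had at least 200 UMIs, 54 had under 20, and 10 of those had 0. All 9 variant genes passed 200 UMIs in germ cells and 8 did in feeder cells.

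Among the variants, H3f3b was the most abundant, at 2299 and 2105 CPM in germ cells given Chd4 and control siRNA, and at 1629 and 1463 CPM in feeder cells given the same. H3f3a, which encodes the same protein, was at 1337 CPM with Chd4 siRNA and 1264 CPM with control siRNA in germ cells and 739 CPM with Chd4 siRNA and 626 CPM with control siRNA in feeder cells. Both genes were higher in germ than in feeder cells, H3f3b by a log2 of 0.50 with Chd4 siRNA and 0.52 with control siRNA and H3f3a by 0.86 with Chd4 siRNA and 1.01 with control siRNA. The median of all 9277 genes compared was itself above 0, at 0.45 with Chd4 siRNA and 0.38 with control siRNA, so H3f3b lay near it. Counts of 3 abundant variants carry doubt, since 50-base words in the last 400 bases of their models occur in other transcripts, 25.4% of them for H3f3a, 25.4% for H2afz and 16.2% for H3f3b. For H3f3a, H3f3c is among the genes that share them (13.9%).

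The H2A.Z genes divided between the cell classes. H2afv was at 1152 CPM with Chd4 siRNA and 1128 CPM with control siRNA in germ cells, against 194 CPM with Chd4 siRNA and 220 CPM with control siRNA in feeder cells, a log2 germ over feeder ratio of 2.57 with Chd4 siRNA and 2.36 with control siRNA. H2afz was at 788 CPM with Chd4 siRNA and 718 CPM with control siRNA in germ cells, against 1051 CPM with Chd4 siRNA and 1023 CPM with control siRNA in feeder cells, and the ratios were -0.42 with Chd4 siRNA and -0.51 with control siRNA. H2afj, an H2A variant known from human fibroblasts in senescence, had the steepest difference the other way, at 111 CPM with Chd4 siRNA and 113 CPM with control siRNA in germ cells and 906 CPM with Chd4 siRNA and 976 CPM with control siRNA in feeder cells (log2 -3.03 with Chd4 siRNA and -3.12 with control siRNA). Of the 9 variant genes 2 were past a log2 of 1 higher in germ cells in both libraries, H2afv and H1fx, where the share of all 9277 genes compared was 30.4%, and 2 were past it lower, H2afj and H2afx, where that share was 16.7%. H1fx reached the minimum of 200 UMIs over both classes only through germ cells, so its place in the first count was set by that minimum.

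The other variants were scarcer. H2afy was at 146 CPM with Chd4 siRNA and 138 CPM with control siRNA in germ cells and at 161 CPM with Chd4 siRNA and 138 CPM with control siRNA in feeder cells, so its cell classes overlapped. H1f0, the linker histone of cells that divide little, was at 70.7 CPM with Chd4 siRNA and 65.2 CPM with control siRNA in germ cells and 172 CPM with Chd4 siRNA and 106 CPM with control siRNA in feeder cells. H2afx was at 41.8 CPM with Chd4 siRNA and 37.1 CPM with control siRNA in germ cells and at 101 CPM with Chd4 siRNA and 89.8 CPM with control siRNA in feeder cells. H1fx, another linker histone, was at 9.96 CPM with Chd4 siRNA and 13.4 CPM with control siRNA in germ cells and 4.16 CPM with Chd4 siRNA and 6.62 CPM with control siRNA in feeder cells.

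A single H2B gene set the direction of the replication-dependent sum between the cell classes. Hist1h2bc was at 22.7 CPM in germ cells and 149 CPM in feeder cells given Chd4 siRNA, and at 17.2 CPM in germ cells and 179 CPM in feeder cells given control siRNA. It made up 36.2% of replication-dependent UMIs in feeder cells with Chd4 siRNA and 35.2% with control siRNA. With it, the sum was lower in germ than in feeder cells, at a log2 of -0.51 with Chd4 siRNA (-0.59 to -0.42) and -0.49 with control siRNA (-0.58 to -0.41). Without it, the ratios were 0.03 (-0.08 to 0.13) with Chd4 siRNA and 0.06 (-0.04 to 0.16) with control siRNA. The median of all 9277 genes compared was 0.45 with Chd4 siRNA and 0.38 with control siRNA. Members past the fold were not counted for the replication-dependent genes, since some, such as Hist1h1a and Hist1h2bj, reached 200 UMIs over both cell classes only through germ cells.

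Linker genes differed in direction between the cell classes. Of those below, Hist1h1a, Hist1h1b and Hist1h1e reached the minimum UMI count for being named only through germ cells, which favoured higher values there. Hist1h1a was at 14.4 CPM with Chd4 siRNA and 17.2 CPM with control siRNA in germ cells and rested on 1 UMI with Chd4 siRNA and 2 UMIs with control siRNA in feeder cells (0.277 CPM with Chd4 siRNA and 0.630 CPM with control siRNA). Hist1h1b was at 10.8 CPM with Chd4 siRNA and 11.0 CPM with control siRNA in germ cells and 4.44 CPM with Chd4 siRNA and 2.52 CPM with control siRNA in feeder cells. Hist1h1c ran the other way, at 18.04 CPM with Chd4 siRNA and 19.7 CPM with control siRNA in germ cells and 57.7 CPM with Chd4 siRNA and 46.9 CPM with control siRNA in feeder cells. Hist1h1e was at 18.2 CPM with Chd4 siRNA and 17.7 CPM with control siRNA in germ cells and 14.4 CPM with Chd4 siRNA and 11.7 CPM with control siRNA in feeder cells, but all 50-base words at its end are shared with the overlapping model of Hist1h2be, so its counts cannot be given to 1 gene.

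More core genes were at or near 0 in feeder cells at this depth. Hist1h2bj, Hist1h3a, Hist3h2ba and Hist1h4d reached the minimum UMI count for being named only through germ cells. The choice of these genes thus favoured higher values in germ cells, and their values do not test a difference between the classes. Hist1h2bj was at 11.3 CPM with Chd4 siRNA and 15.4 CPM with control siRNA in germ cells and at 0.554 CPM with Chd4 siRNA and 0.945 CPM with control siRNA in feeder cells. Hist1h3a was at 8.16 CPM with Chd4 siRNA and 9.39 CPM with control siRNA in germ cells, with 1 UMI in the feeder cells of each library. Hist3h2ba was at 12.3 CPM with Chd4 siRNA and 7.84 CPM with control siRNA in germ cells, with 1 UMI in feeder cells given Chd4 siRNA and 0 in those given control siRNA. Hist1h4d was at 8.57 CPM with Chd4 siRNA and 11.1 CPM with control siRNA in germ cells and 2.49 CPM with Chd4 siRNA and 3.15 CPM with control siRNA in feeder cells. Hist1h4i, the H4 gene with the most UMIs, was present in both classes, at 33.3 CPM with Chd4 siRNA and 31.1 CPM with control siRNA in germ cells and 48.8 CPM with Chd4 siRNA and 43.8 CPM with control siRNA in feeder cells.

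**Figure D1:**
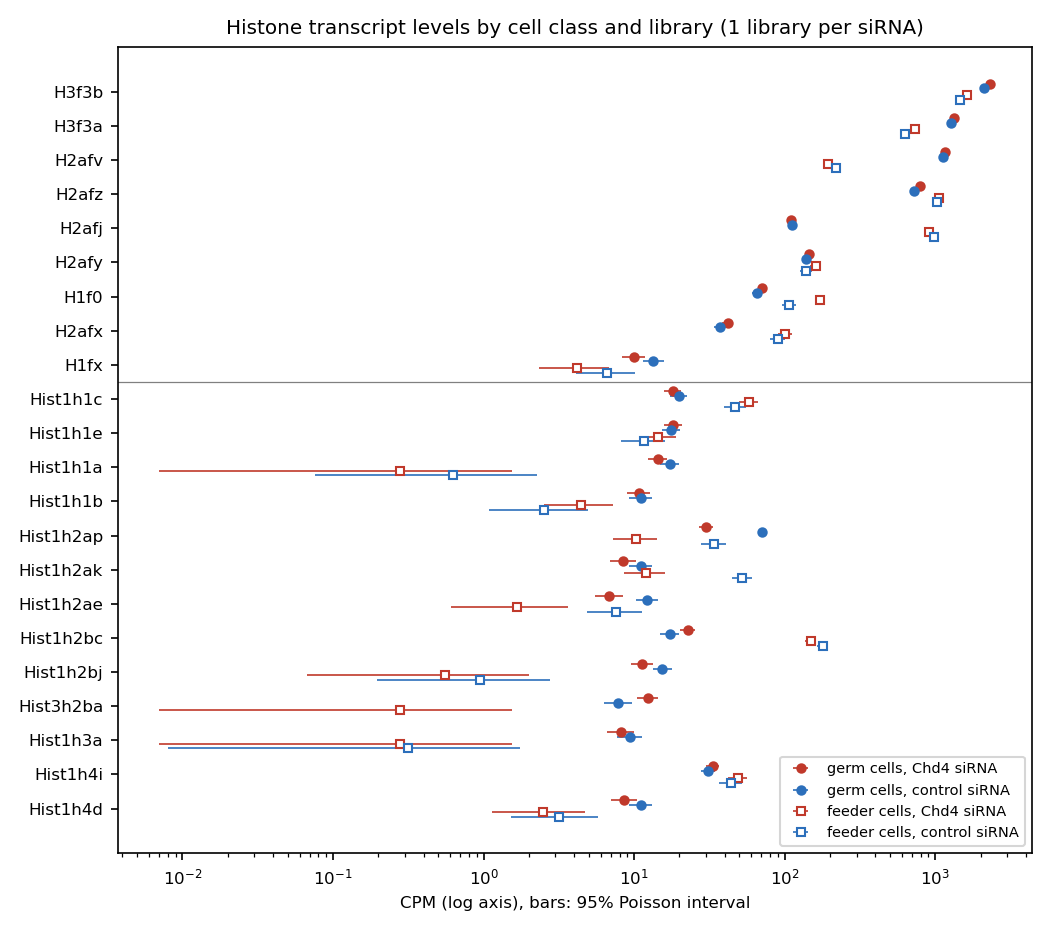
CPM on a log axis for the 9 variant genes (above the line) and the 13 replication-dependent genes with at least 200 UMIs in germ cells (below it), with 95% Poisson intervals, 1 library per siRNA. Filled points are germ cells and open squares feeder cells. H3f3b lies near 2000 CPM and the replication-dependent genes lie between 5 and 100 CPM in germ cells. Hist3h2ba had 0 UMIs in feeder cells given control siRNA and has no mark there.

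Replication-dependent transcripts were highest in the germ cells with the highest share of S phase transcripts. Germ cells thinned to 9000 UMIs were ranked by the share of a list of 39 measured S phase genes, which holds no histone gene, and cut in 4 bins of about equal size over both libraries together. This used 697 cells given Chd4 siRNA and 666 given control siRNA. From the lowest to the highest bin the replication-dependent sum was 222, 209, 232 and 450 CPM with Chd4 siRNA, and 255, 272, 309 and 585 CPM with control siRNA. The step was at the top: the first 3 bins lay close together and the highest stood above them in both libraries. Highest over lowest bin, the log2 ratio was 1.02 (0.88 to 1.15) with Chd4 siRNA and 1.20 (1.07 to 1.33) with control siRNA. The G2/M list was also higher in that bin, by 1.85 with Chd4 siRNA and 1.63 with control siRNA, so cells of the highest bin were high in both lists. Median depth with Chd4 siRNA was 17707 UMIs in the highest bin and 14906 in the lowest, and with control siRNA 16999 and 15515. The part of depth in these ratios was not tested.

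By family, H3 was highest over lowest by a log2 of 1.71 (1.20 to 2.26) with Chd4 siRNA and 1.44 (0.90 to 2.01) with control siRNA, and H2A by 1.35 (1.09 to 1.62) with Chd4 siRNA and 1.76 (1.54 to 1.98) with control siRNA. H1 gave 1.18 with Chd4 siRNA and 0.88 with control siRNA, and H4 gave 0.99 with Chd4 siRNA and 1.04 with control siRNA. H2B gave 0.16 (-0.13 to 0.45) with Chd4 siRNA and 0.37 (0.07 to 0.68) with control siRNA. A pair of H2B genes with opposite slopes lies behind that flat sum: Hist1h2bj gave 2.09 with Chd4 siRNA and 1.94 with control siRNA, and Hist1h2bc gave -2.10 with Chd4 siRNA and -2.22 with control siRNA. Hist1h2bc was at 32.7, 24.5, 23.4 and 7.61 CPM from the lowest to the highest bin with Chd4 siRNA, and at 24.3, 26.1, 10.8 and 5.21 CPM with control siRNA. It is also the replication-dependent gene most abundant in the feeder cells. The fibroblast marker list was lower in the highest bin too, by a log2 of -0.46 with Chd4 siRNA and -0.15 with control siRNA. Col1a1 and Fn1, the feeder markers of the split, went the other way. Their sum gave 0.30 (-0.02 to 0.63) with Chd4 siRNA and 0.64 (0.30 to 0.98) with control siRNA. The part of fibroblast transcripts in the Hist1h2bc values was not tested. Hist3h2ba likewise ran against S phase, at -0.87 with Chd4 siRNA and -0.95 with control siRNA. The H2A gene beside it, Hist3h2a, had a steeper slope of this sign, at -3.00 (-4.39 to -1.84) with Chd4 siRNA and -2.63 (-5.05 to -0.84) with control siRNA, from 47 UMIs in the lowest and 7 in the highest bin with Chd4 siRNA and 17 and 3 UMIs in the same bins with control siRNA. Hist3h2a overlaps the model of Trim17 on the same strand, so UMIs given to it may not all be its own.

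**Figure D2:**
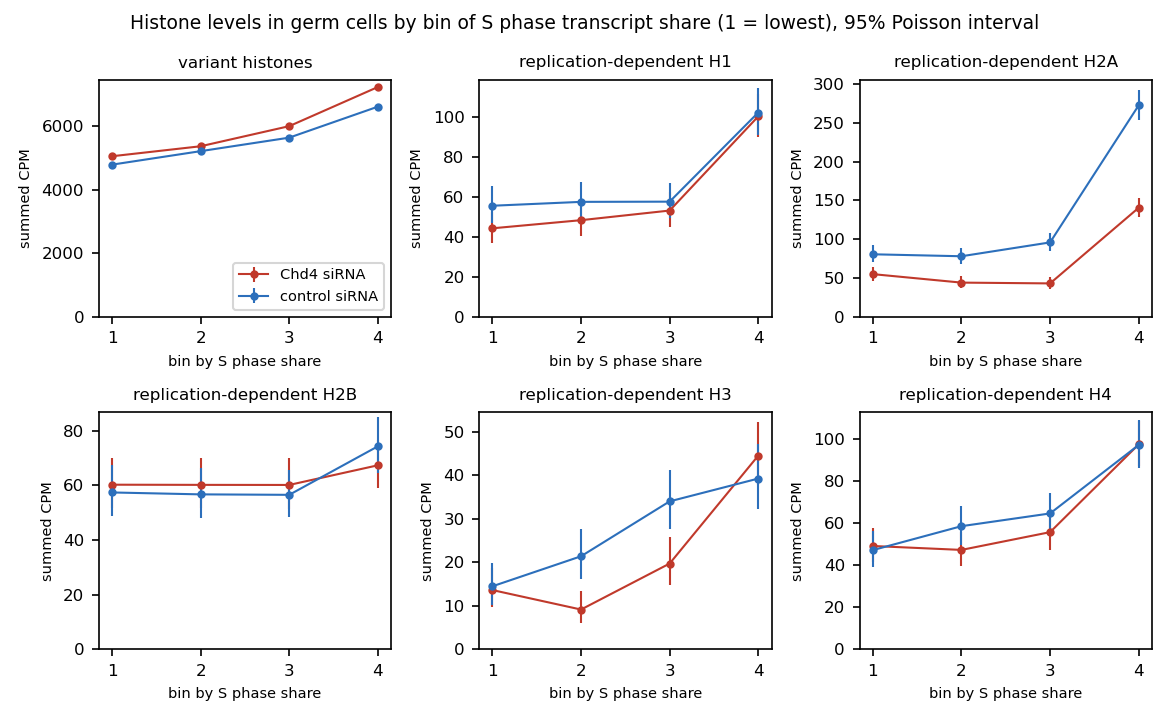
Summed CPM (vertical axes, from 0) by bin of germ cells ranked by S phase transcript share (horizontal axes, 1 lowest), for the variant genes and each replication-dependent family, with 95% Poisson intervals. H2A is lower with Chd4 siRNA in every bin, at 140.5 against 272.5 CPM in the highest, whereas the lines of H2B and H4 lie close together.

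Among single genes higher in the highest bin, Hist1h2ap was at 16.02, 17.1, 13.7 and 69.4 CPM from the lowest to the highest bin with Chd4 siRNA, and at 41.4, 39.8, 46.8 and 156 CPM with control siRNA, a log2 ratio of 2.12 (1.65 to 2.60) with Chd4 siRNA and 1.91 (1.61 to 2.23) with control siRNA. Beside Hist1h2bj, ratios past 2 with Chd4 siRNA were also those of Hist1h1b (2.26, and 1.58 with control siRNA) and Hist1h3a (2.12, and 1.97 with control siRNA). With Chd4 siRNA the ratio was 1.85 for Hist1h2ak, 1.37 for Hist1h2ae, 1.27 for Hist1h1a, 1.43 for Hist1h1e, 1.45 for Hist1h4d and 1.09 for Hist1h4i. With control siRNA it was 1.79 for Hist1h2ak, 1.82 for Hist1h2ae, 1.47 for Hist1h1a, 1.02 for Hist1h1e, 0.94 for Hist1h4d and 1.23 for Hist1h4i. Hist1h1c gave 0.24 (-0.34 to 0.82) with Chd4 siRNA and -0.18 (-0.73 to 0.37) with control siRNA, which includes no difference in both libraries. Members past a fold were not counted here, since Hist1h1a and Hist1h1e reached 200 UMIs over the lowest and highest bins only through the highest, while Hist1h2bc, which ran the other way, fell just short.

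The variants followed the S phase share less steeply and not all alike. Their sum was 5060, 5375, 6009 and 7241 CPM from the lowest to the highest bin with Chd4 siRNA, and 4795, 5221, 5646 and 6622 CPM with control siRNA, a log2 ratio of 0.52 (0.49 to 0.55) with Chd4 siRNA and 0.47 (0.43 to 0.50) with control siRNA. H2afz was the steepest of the abundant variants, at 1.26 with Chd4 siRNA and 1.14 with control siRNA. H3f3a was close to flat, at 0.12 with Chd4 siRNA and 0.01 with control siRNA. With Chd4 siRNA the ratio was 0.57 for H3f3b, 0.54 for H2afv, -0.22 for H2afy, -0.30 for H2afj, 0.46 for H2afx, 0.37 for H1f0 and 1.497 for H1fx. With control siRNA it was 0.55 for H3f3b, 0.53 for H2afv, 0.04 for H2afy, -0.11 for H2afj, 0.63 for H2afx, 0.00 for H1f0 and 1.14 for H1fx. Of 8 variant genes with 200 or more UMIs in the lowest and highest bins together, 3 were past 0.5 higher in both libraries, H2afz, H2afv and H3f3b, where the share of all 6255 genes was 8.62%, and 0 were past it lower, where that share was 1.60%. Across cells, Spearman's rho between the S phase share and thinned UMIs was 0.46 with Chd4 siRNA (n = 697) and 0.44 with control siRNA (n = 666) for the variant sum. It was 0.29 with Chd4 siRNA and 0.27 with control siRNA for the replication-dependent sum, of which the median cell had 2 UMIs after thinning. With the G2/M share the rho was as high or higher, at 0.46 with Chd4 siRNA and 0.49 with control siRNA for the variant sum and 0.31 with Chd4 siRNA and 0.33 with control siRNA for the replication-dependent sum, so the values do not set S phase apart from G2/M. Each pair of values comes from the same cells, which were thinned to equal depth. The part of their depth before thinning was not tested.

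Slopes were also compared between classes of transcript model. This grouping by model end was made after the values were known. Highest over lowest, the 22 genes ending within 100 bases of the stem-loop gave a log2 of 1.97 (1.69 to 2.27) with Chd4 siRNA and 1.83 (1.60 to 2.05) with control siRNA. The 22 genes whose models run further gave 0.56 (0.37 to 0.76) with Chd4 siRNA and 0.69 (0.49 to 0.90) with control siRNA. The 25 with no match gave 0.84 (0.58 to 1.11) with Chd4 siRNA and 0.98 (0.70 to 1.26) with control siRNA. That last value rested on Hist1h2bc: the 24 other genes with no match gave 1.84 (1.49 to 2.21) with Chd4 siRNA and 1.66 (1.32 to 2.00) with control siRNA, which overlap the class ending at the stem-loop. Within H2A, too, the 8 genes with no match, at 2.04 (1.42 to 2.71) with Chd4 siRNA and 1.92 (1.39 to 2.49) with control siRNA, were as steep as the 8 ending at the stem-loop, at 1.95 (1.54 to 2.37) with Chd4 siRNA and 1.89 (1.61 to 2.18) with control siRNA. In germ over feeder cells the 3 classes, in the same order, gave 1.11, -0.45 and -1.34 with Chd4 siRNA, and 0.93, -0.20 and -1.78 with control siRNA. Without Hist1h2bc the class with no match gave 0.32 (0.06 to 0.59) with Chd4 siRNA and -0.58 (-0.78 to -0.38) with control siRNA, so 1 gene set its value and its sign differed between the libraries. Without Hist1h2ap the first class still gave 1.88 with Chd4 siRNA and 1.72 with control siRNA for highest over lowest.

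In germ cells given Chd4 siRNA, replication-dependent transcripts were fewer and variant transcripts slightly more numerous than in germ cells given control siRNA. The replication-dependent sum was 290 CPM (280 to 299) with Chd4 siRNA and 362 CPM (352 to 373) with control siRNA, a log2 ratio of -0.32 (-0.39 to -0.26). The variant sum had a log2 ratio of 0.09 (0.08 to 0.11). The median of all 8257 genes with at least 200 UMIs was 0.05, that of the 13 replication-dependent genes -0.20, and that of the 9 variant genes 0.08. The S phase list itself had a ratio of 0.03 and the G2/M list -0.04.

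The lower replication-dependent sum was carried mainly by H2A. H2A genes summed to 73.6 CPM (68.9 to 78.6) with Chd4 siRNA and 133 CPM (126 to 140) with control siRNA, a log2 ratio of -0.85 (-0.97 to -0.73). The H3 sum had -0.31 (-0.55 to -0.08), at 23.0 CPM with Chd4 siRNA and 28.6 CPM with control siRNA. The H1 sum (-0.10, -0.24 to 0.04), the H4 sum (-0.10, -0.24 to 0.05) and the H2B sum (0.04, -0.11 to 0.19) had intervals that include 0. All families other than H2A together had -0.09 (-0.16 to -0.01). Of the 14 H2A genes with at least 20 UMIs, 11 had ratios below 0, 7 had intervals wholly below 0, and 1, Hist3h2a, had an interval wholly above it. Over all members with at least 20 UMIs, 13 of 54 had intervals below 0, where the share of all 12901 genes was 6.78%, and 7 had intervals above 0, where that share was 13.9%. By size alone, 15 of the 54 were below -0.5, where the share of all genes was 5.2%, and 5 were above 0.5, where it was 5.7%.

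Hist1h2ap had the largest share of the H2A difference. It was at 30.1 CPM (27.1 to 33.3) in germ cells given Chd4 siRNA and 70.7 CPM (66.0 to 75.8) in those given control siRNA, from 369 UMIs with Chd4 siRNA and 821 UMIs with control siRNA, a log2 ratio of -1.23 (-1.41 to -1.05). Its intervals did not overlap. It alone made up 10.4% of replication-dependent UMIs in germ cells with Chd4 siRNA and 19.5% with control siRNA. Without it the H2A ratio was -0.52 (-0.68 to -0.35) and the replication-dependent ratio -0.17 (-0.24 to -0.10), both computed after its value was seen. All 50-base words in the last 400 bases of Hist1h2ap are shared, in full with Hist1h2ao and for 81.8% with Hist1h2ag. UMIs given to it may therefore stem from any of these genes, and it also overlaps the antisense model Gm44466, while whether counting used strand is not stated.

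The other H2A genes were mostly lower too. Hist1h2ae was at 6.86 CPM (5.47 to 8.49) with Chd4 siRNA and 12.1 CPM (10.2 to 14.3) with control siRNA, a log2 ratio of -0.83 (-1.23 to -0.43). Hist1h2ak was at 8.49 CPM with Chd4 siRNA and 11.1 CPM with control siRNA, with -0.39 (-0.78 to -0.01). Among the scarcer genes, Hist1h2ai had 14 UMIs with Chd4 siRNA and 46 UMIs with control siRNA (-1.79, -2.77 to -0.91), Hist1h2ac 40 UMIs with Chd4 siRNA and 87 UMIs with control siRNA (-1.20, -1.78 to -0.64), and Hist1h2ag 31 UMIs with Chd4 siRNA and 62 UMIs with control siRNA (-1.08, -1.75 to -0.43). Most of these share sequence too. Of their end words, 44.2% for Hist1h2ae, 52.3% for Hist1h2ak, 78.6% for Hist1h2ag and 90.1% for Hist1h2ai occur in other transcripts. For Hist1h2ac the share was 0%, although 67.5% of the end words of Hist1h2ap occur in its model.

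Other replication-dependent families showed single genes on both sides. Hist3h2ba, an H2B gene outside the large cluster on chromosome 13, was at 12.3 CPM (10.4 to 14.5) with Chd4 siRNA and 7.84 CPM (6.31 to 9.63) with control siRNA, a log2 ratio of 0.65 (0.27 to 1.04). Hist1h2bc had 0.40 (0.13 to 0.67) and Hist1h2bj -0.45 (-0.78 to -0.13), so this pair, with opposite S phase slopes, also differed in this sign. Of 11 H2B genes with at least 20 UMIs, 6 had ratios below 0. Intervals lay wholly below 0 for 2 of the 11 and wholly above it for 2. The S phase slopes of the scarcer H2B genes were not set against their ratios. Hist1h1c (-0.13), Hist1h1e (0.04), Hist1h1a (-0.26), Hist1h1b (-0.03), Hist1h3a (-0.20), Hist1h4i (0.10) and Hist1h4d (-0.38) had intervals that include 0. Among the scarcer genes, Hist1h4b had 56 UMIs with Chd4 siRNA and 82 UMIs with control siRNA (-0.63, -1.15 to -0.12), Hist1h4c 52 UMIs with Chd4 siRNA and 98 UMIs with control siRNA (-0.99, -1.51 to -0.49), Hist1h3c 60 UMIs with Chd4 siRNA and 81 UMIs with control siRNA (-0.51, -1.02 to -0.01) and Hist1h2bb 30 UMIs with Chd4 siRNA and 48 UMIs with control siRNA (-0.76, -1.47 to -0.07). Of 22 members with at least 200 UMIs, 2 were past -0.5, Hist1h2ap and Hist1h2ae, where the share of all genes was 1.39%, and 1 was past 0.5, Hist3h2ba, where that share was 0.957%.

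**Figure D3:**
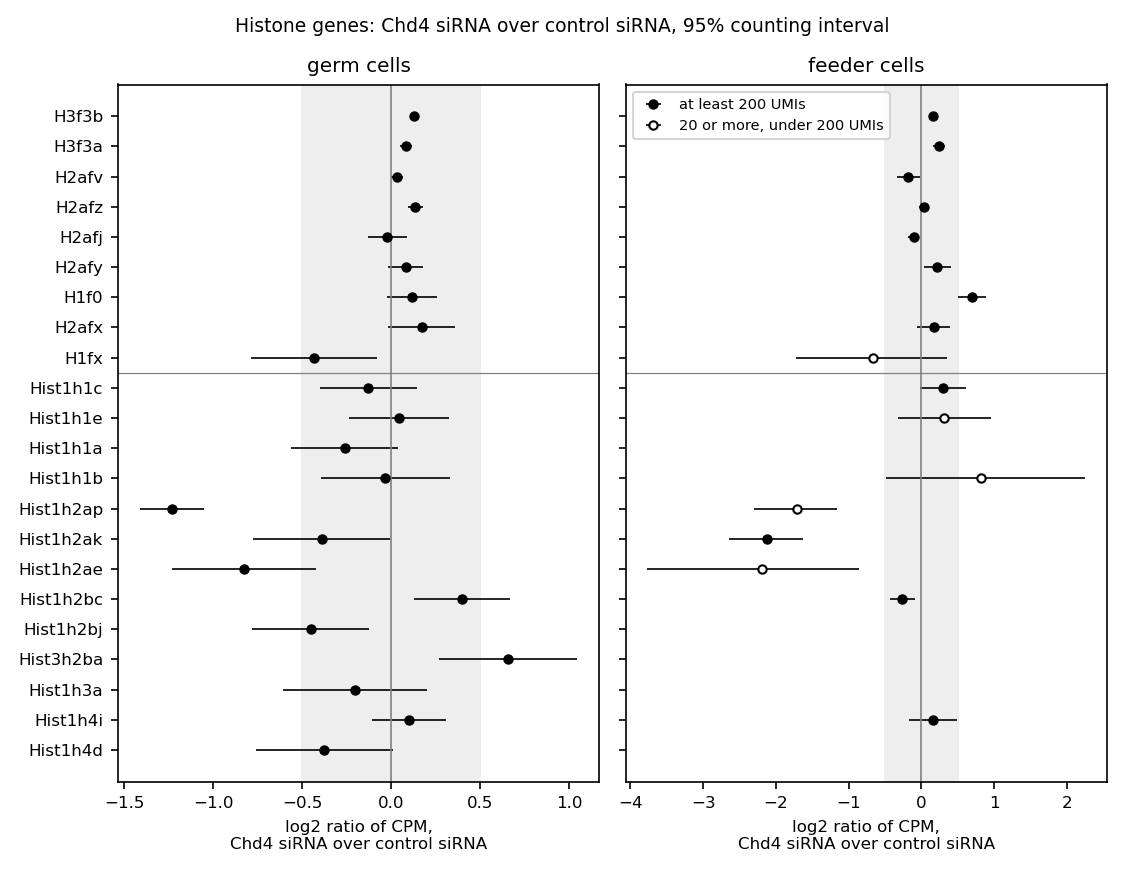
Log2 ratio of CPM, Chd4 siRNA over control siRNA, with 95% counting intervals, for the 9 variant genes (above the line) and 13 replication-dependent genes (below it) in germ cells (left) and feeder cells (right, wider axis). The grey band spans -0.5 to 0.5, and open points rest on fewer than 200 UMIs. Genes under 20 UMIs in feeder cells are not drawn. Hist1h2ap lies at -1.23 in germ cells and -1.72 in feeder cells.

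The variants moved little in germ cells. H3f3b had a log2 ratio of 0.13 (0.10 to 0.15), H3f3a 0.08 (0.05 to 0.11) and H2afz 0.13 (0.09 to 0.18), all within 0.1 of the median of all genes. H2afv had 0.03 (-0.00 to 0.06), with a sign that turned to -0.02 with TMM factors and -0.01 with DESeq2 factors. H2afy (0.08), H2afj (-0.02), H1f0 (0.12) and H2afx (0.17) had intervals that include 0. H1fx was the exception, at 9.96 CPM with Chd4 siRNA and 13.4 CPM with control siRNA, with -0.43 (-0.79 to -0.08).

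The H2A difference was present in each bin of the S phase ranking. From the lowest to the highest bin the H2A ratio was -0.55 (-0.86 to -0.25), -0.82 (-1.15 to -0.50), -1.15 (-1.48 to -0.84) and -0.96 (-1.12 to -0.79). Without Hist1h2ap the values were -0.01, -0.51, -0.74 and -0.71, so in the lowest bin the H2A difference rested on Hist1h2ap. The other families together gave -0.06, -0.24, -0.17 and -0.02. The H3 sum was lower in the second bin (-1.23, from 26 UMIs with Chd4 siRNA and 58 with control siRNA) and the third (-0.79, from 53 UMIs with Chd4 siRNA and 101 with control siRNA), against -0.09 in the lowest and 0.18 in the highest. The variant sum gave 0.08, 0.04, 0.09 and 0.13. The bins held 180, 176, 159 and 182 cells given Chd4 siRNA and 161, 165, 182 and 158 cells given control siRNA.

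**Figure D4:**
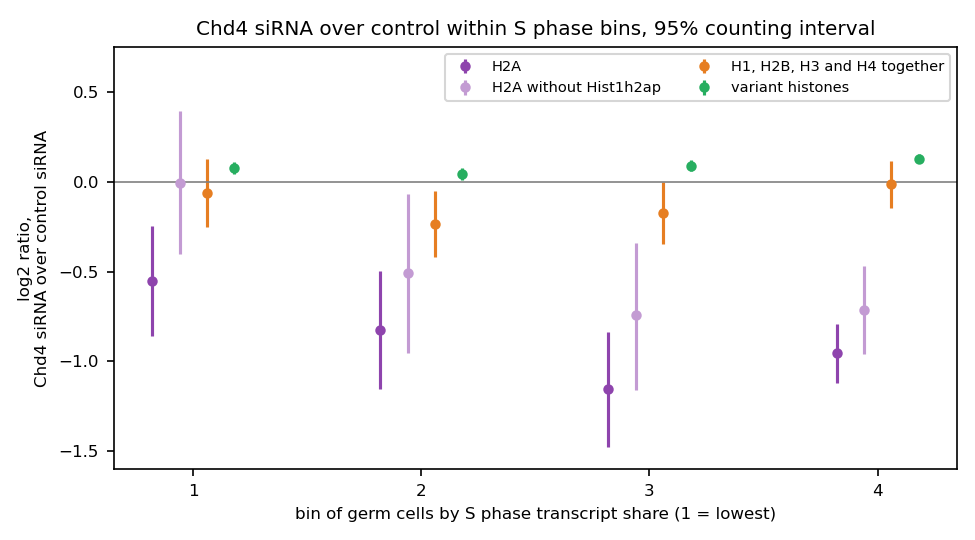
Log2 ratio of CPM, Chd4 siRNA over control siRNA (vertical axis), within each bin of germ cells by S phase transcript share (horizontal axis), with 95% counting intervals. The H2A points run from -0.55 to -1.15 and the variant points from 0.04 to 0.13.

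H2A and H2B genes often stand head to head and share the stretch between them, so both sides of 10 pairs with overlapping promoter windows were set side by side. The H2A sides summed to 638 UMIs with Chd4 siRNA and 1240 UMIs with control siRNA in germ cells (-1.04, -1.18 to -0.90), and the H2B sides to 228 UMIs with Chd4 siRNA and 287 UMIs with control siRNA (-0.41, -0.67 to -0.15). For the pair of Hist1h2ag and Hist1h2bj the ratios were -1.08 (-1.75 to -0.43) and -0.45 (-0.78 to -0.13), and for the pair of Hist1h2ae and Hist1h2bg, whose H2A window is printed above, -0.83 (-1.23 to -0.43) and -0.58 (-1.56 to 0.38). The H2B partner of Hist1h2ap, Hist1h2br, had 1 UMI, so that pair gave no second value. Yet Hist1h2ap gave 1190 of the UMIs of the H2A sides over both libraries, and Hist1h2bj gave 317 of those of the H2B sides. Each sum thus rested largely on 1 gene, from different pairs, and the sums do not compare partners pair by pair.

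Model end and length went along with the difference as well. The 22 genes whose models end within 100 bases of the stem-loop summed to 80.6 CPM with Chd4 siRNA and 141 CPM with control siRNA (-0.81, -0.92 to -0.69). The 22 whose models run further had -0.08 (-0.18 to 0.02) and the 25 with no match -0.08 (-0.21 to 0.06), or -0.24 (-0.40 to -0.09) without Hist1h2bc. Without Hist1h2ap the first class had -0.48 (-0.63 to -0.33), and its 14 genes outside H2A had -0.38 (-0.55 to -0.21), from 531 UMIs with Chd4 siRNA and 655 UMIs with control siRNA. H2A genes were lower in the other classes too, at -0.41 (-0.67 to -0.15) where models run further and -0.40 (-0.67 to -0.14) with no match. Genes outside H2A in those classes had -0.02 (-0.13 to 0.09) and 0.04 (-0.11 to 0.20). Family and model end were thus mixed in the class sums. Among all germ cell genes with at least 200 UMIs, 5.94% of the 623 with a median model under 600 bases were past -0.5, against 0.981% to 1.11% in the classes of longer genes. With histone and ribosomal protein genes left out, 4.86% of 576 short genes were past it. Short transcripts thus lay below -0.5 more often in this pair of libraries, while the share above 0.5 was not counted by length. The median ratio of the short class was 0.001, against 0.046 to 0.058 in the longer classes. Hist1h2ae, with a model of 704 bases, is not in the short class. The part of length in the H2A values was not tested.

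**Figure D5:**
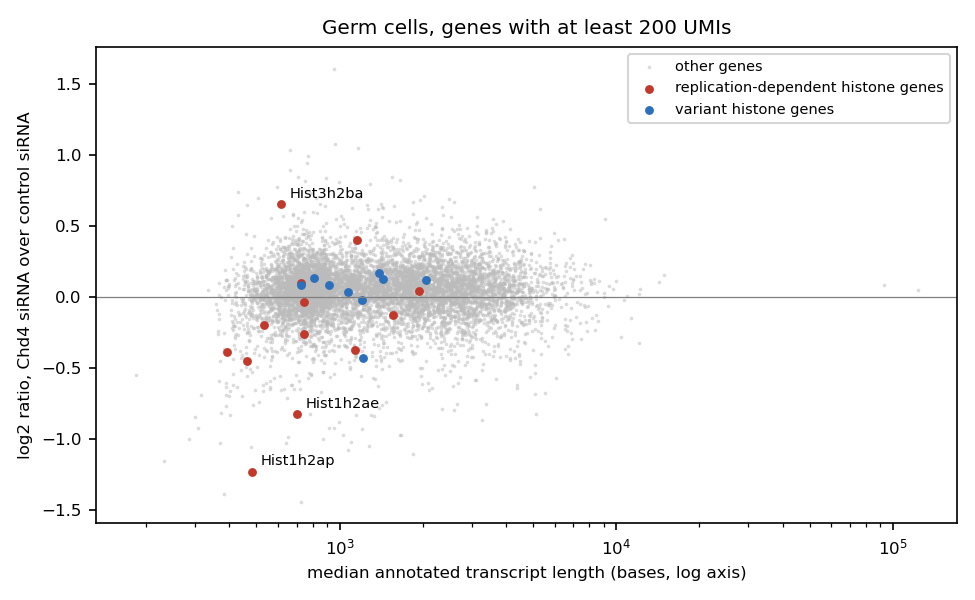
Log2 ratio, Chd4 siRNA over control siRNA, in germ cells (vertical axis) against median annotated transcript length in bases (horizontal log axis) for genes with at least 200 UMIs. Hist1h2ap, at 482 bases, and Hist1h2ae, at 704 bases, lie among the lowest points, and the variant genes lie between -0.43 and 0.17.

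In feeder cells, too, H2A was the family with the lowest ratio. The replication-dependent sum had a log2 ratio of -0.31 (-0.41 to -0.21), at 412 CPM with Chd4 siRNA and 510 CPM with control siRNA, and the H2A sum -0.996 (-1.21 to -0.79), at 81.5 CPM with Chd4 siRNA and 162 CPM with control siRNA. Without Hist1h2ap the H2A ratio was -0.85 (-1.09 to -0.63). Hist1h2ak carried much of it, at 11.9 CPM (8.63 to 16.1) with Chd4 siRNA and 52.0 CPM (44.3 to 60.5) with control siRNA (-2.12, -2.64 to -1.63). Hist1h2ap had -1.72 (-2.30 to -1.17), from 37 UMIs with Chd4 siRNA and 107 UMIs with control siRNA, and Hist1h2ae -2.18 (-3.76 to -0.86), from 6 UMIs with Chd4 siRNA and 24 UMIs with control siRNA. The families without H2A together had -0.07 (-0.19 to 0.05), made up of H1 at 0.30 (0.04 to 0.57), H2B at -0.25 (-0.42 to -0.08), H3 at 0.13 (-0.49 to 0.76) and H4 at -0.05 (-0.29 to 0.20). In these cells the S phase list was also lower, at 780 CPM with Chd4 siRNA and 1072 CPM with control siRNA (-0.46, -0.53 to -0.39), and its part in the histone values was not tested.

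The largest variant difference in feeder cells was that of H1f0, at 172 CPM (159 to 186) with Chd4 siRNA and 106 CPM (95.4 to 119) with control siRNA, a log2 ratio of 0.69 (0.50 to 0.89). Its germ cell ratio was 0.12 (-0.03 to 0.26), and the difference between the classes was not tested. H3f3a had 0.24 (0.15 to 0.32), H3f3b 0.16 (0.10 to 0.21) and H2afy 0.22 (0.04 to 0.40). H2afv had -0.18 (-0.33 to -0.03) and H2afj -0.11 (-0.18 to -0.04), while H2afz (0.04) and H2afx (0.17) had intervals that include 0. Of 12 members with at least 200 UMIs, 1 was past -0.5, Hist1h2ak, where the share of all 4249 genes was 4.28%, and 1 was past 0.5, H1f0, where that share was 3.18%. In either direction the share of all genes was 7.46%.

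Genes that make, process and deposit histones differed less than H2A in germ cells. Of 22 genes of histone mRNA synthesis and 3′ end formation with at least 200 UMIs, 0 were past a log2 of 0.5 either way, with a median of 0.05, beside 2.35% and 0.05 over all genes. Slbp, which binds the stem-loop, was at 202 CPM with Chd4 siRNA and 181 CPM with control siRNA (0.16, 0.07 to 0.24), and was itself higher in the highest S phase bin, by 1.29 with Chd4 siRNA and 1.37 with control siRNA. Lsm10, of the U7 particle that directs 3′ cleavage, had 0.11 (-0.01 to 0.23), Eri1, an exonuclease of histone mRNA decay, 0.21 (0.01 to 0.42), and the cleavage factor Cpsf1 0.18 (-0.01 to 0.37).

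Of 26 histone chaperones 0 were past 0.5, with a median of 0.08. Set, a chaperone and inhibitor of histone acetylation, was at 258 CPM with Chd4 siRNA and 327 CPM with control siRNA (-0.34, -0.41 to -0.27) in germ cells and had -0.63 in feeder cells. Npm1 had 0.19 (0.16 to 0.22), Atrx 0.20 (0.10 to 0.29) and its partner Daxx, which places H3.3, 0.36 (0.16 to 0.57). Of 13 genes of the complexes that exchange H2A.Z 0 were past 0.5, with a median of 0.07. Ruvbl1 had 0.22 (0.11 to 0.33), Ruvbl2 0.22 (0.07 to 0.37), Vps72 0.16 (0.03 to 0.29) and Znhit1 -0.16 (-0.27 to -0.05). In feeder cells 1 of 10 processing genes and 2 of 18 chaperones were past -0.5, beside 4.28% of all genes, and 0 of 8 exchange genes were past it.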

How the data were processed

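The authors deposited raw UMI counts per gene and cell for 2 libraries, per the file headers, and all values were whole. Per the submitters' processing notes, the tools were Cell Ranger 2.1.0 and Seurat and the build mm10. How counting treated strand and reads with several matches is not stated. Symbols were held for 26893 of 27998 matrix rows. The other 1105 hold 12.6% of UMIs in the Chd4 siRNA library and 12.1% in the control library and stayed out of totals. Used were 860 complete cells given Chd4 siRNA, less 2 under 1000 UMIs, and 816 given control siRNA.

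The members, gene lists and marker lists were chosen with earlier results of these data known. The genes named are those with at least 200 UMIs in germ or feeder cells, and of each pathway list up to 4 genes with the interval bound farthest from no difference. Others named were chosen after their values were seen.

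UMIs were summed per library and cell class in Python 3.11.15 with scipy 1.17.1. CPM has exact Poisson intervals and ratios have exact conditional binomial (Clopper-Pearson) intervals, at 95%. The intervals cover counting error only. They are about 0.05 wide on the log2 scale for H3f3b and over 0.7 near 200 UMIs. A gene counted as past the fold at a log2 of 0.5 with at least 200 UMIs over both libraries. The code was tested on simulated counts. Scrublet (expected rate 1%) called 6 cells (0.699%) given Chd4 siRNA and 8 (0.980%) given control siRNA doublets, and these were kept. Alternatives were a stricter split of cells (at least 3 UMIs and 5 times the other markers), doublets left out, thinned cells, scaling by edgeR 4.0.16 TMM or DESeq2 1.42.0 factors in R 4.3.3, other minimum counts and folds, sums without their top gene, and phase calls by scanpy 1.11.5. Of germ cells, 63 given Chd4 siRNA and 62 given control siRNA had under 9000 UMIs and were left out of the bins.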

Additional observations from a re-analysis of the deposited data

Results flagged for a closer look

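Hist1h2bc, the replication-dependent gene with the most UMIs in feeder cells, lay on opposite sides of no difference in the 2 cell classes. Its log2 ratio of Chd4 siRNA over control siRNA was 0.40 (0.13 to 0.67) in germ cells, from 278 UMIs with Chd4 siRNA and 200 with control siRNA, and -0.27 (-0.44 to -0.09) in feeder cells, from 538 UMIs with Chd4 siRNA and 569 with control siRNA. The difference between the classes was not tested, since each class has 1 library per siRNA. The fibroblast marker list in germ cells summed to 816 CPM with Chd4 siRNA and 741 CPM with control siRNA, with 0 of its 13 measured genes at 0. Yet the median log2 ratio of its 5 genes with at least 200 UMIs in germ cells was -0.03. Col1a1 and Fn1 together were at 54.4 CPM in the germ cells of both libraries. The part of fibroblast transcripts in the germ cell value of Hist1h2bc was not tested.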

How the results depend on the processing

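No paired analysis was possible because each group is 1 library. The sums over replication-dependent genes, Chd4 siRNA over control siRNA, kept their direction under every alternative run, with -0.17 in germ cells when Hist1h2ap was left out, an alternative chosen after seeing the data. The count of 3 of 22 members past the fold in germ cells became 14 of 38 at 50 UMIs and 1 of 10 at 500 UMIs. Over all genes these settings called 705 of 11262 and 100 of 5684. The germ cell count was 1 at a log2 of 1 and 11 by the interval leaving out the median of all genes. All-gene counts there were 15 and 1947 of 8257. With TMM factors it was 4, beside 197 of 8257, and in thinned cells 2, beside 154 of 6413. The count of 2 in feeder cells became 5 at 50 UMIs, 1 at 500 UMIs, 1 at a log2 of 1, 8 by the interval and 1 in thinned cells. Over all genes these were 1151 of 8346, 106 of 1822, 28 of 4249, 1389 of 4249 and 81 of 910. The variant ratio of 0.09 in germ cells became 0.0458 with TMM factors, 0.0580 with DESeq2 factors and 0.0729 without H3f3b. That of 0.09 in feeder cells became 0.15 with DESeq2 factors and 0.13 in thinned cells. Without Hist1h2bc, germ over feeder for the replication-dependent sum changed sign, at 0.0252 with Chd4 siRNA and 0.0630 with control siRNA, against -0.51 with Chd4 siRNA and -0.49 with control siRNA when it was kept. Without H3f3b, that for the variant sum was 0.14 with Chd4 siRNA and 0.13 with control siRNA. With Chd4 siRNA, highest over lowest bin for the replication-dependent sum was 1.22 without Hist1h2bc and 0.57 by phase calls, S over G1, and for the variant sum 0.48 without H3f3b, 0.29 by phase calls and 0.47 when thinned to 5000 UMIs. With control siRNA the replication-dependent values were 1.33 and 0.82, and the variant values 0.41, 0.27 and, unthinned, 0.52. The cause of these shifts was not tested. TMM and DESeq2 factors moved all germ cell ratios by -0.05 and -0.04. Of the values for single genes and the H2A sums, 12 of 182 moved beyond their interval. Depth limits the 56 replication-dependent genes under 200 UMIs.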

Other observations

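The testis-type histones, which are known from later spermatogenesis, were near the limit of detection, as values chosen after they were seen. Hist1h2ba, which encodes TH2B, had 19 UMIs in germ cells given Chd4 siRNA and 13 in those given control siRNA, and 0 in the feeder cells of both libraries. Its partner Hist1h2aa, which encodes TH2A, had 17 UMIs in germ cells given Chd4 siRNA and 10 in those given control siRNA. Hist1h1t, the linker histone of spermatocytes, had 3 UMIs in the germ cells of each library and 0 in feeder cells.

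Hist3h2a and Hist3h2ba, both on chromosome 11, were higher with Chd4 siRNA in germ cells, Hist3h2a at 8.16 CPM against 4.65 CPM with control siRNA (0.81, 0.32 to 1.32) and Hist3h2ba at 12.3 CPM against 7.84 CPM with control siRNA (0.65, 0.27 to 1.04). In feeder cells Hist3h2a had 113 UMIs with Chd4 siRNA and 77 with control siRNA, while Hist3h2ba had 1 UMI with Chd4 siRNA and 0 with control siRNA. The model of Hist3h2a overlaps that of Trim17 on the same strand, so its values may not be those of Hist3h2a alone. Hist4h4, on chromosome 6, was also higher in germ cells, from 70 UMIs with Chd4 siRNA and 41 with control siRNA (0.69, 0.12 to 1.29).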
